A study of Mus musculus with 13 samples.

Results

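The 9 genes described here, Lyve1, Stab1, Stab2, Oit3, Clec4g, Fcgr2b, Kdr, Pecam1 and Gata4, are markers of liver sinusoidal endothelial cells. They are a listed set of 9 among the 18820 genes that the arrays measured with a feature of exactly 1 gene symbol, and each gene was read from its such feature with the highest mean over the livers. Liver RNA of 13 C57BL/6J mice was hybridised to whole-transcript arrays, with 1 array per mouse. The groups were wild-type mice at 3 weeks (n = 3), hepatocyte-specific Sel1L-deficient mice at 3 weeks (LiSel1lKO, n = 4), wild-type mice at 9 weeks (n = 3) and LiSel1lKO mice at 9 weeks (n = 3). LiSel1lKO mice carried Sel1l alleles with a floxed exon 6 and Cre recombinase under the albumin promoter, which is active in hepatocytes and not in endothelium, so that endothelial cells keep the gene by design. The sources used here do not give the sex or litter of the mice, or whether the wild-type mice carried floxed alleles. Mice of all groups had been fasted for 5 to 6 hours in the morning.

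Sinusoidal endothelial cells line the liver's capillaries. They have open pores and no continuous basement membrane, and they clear hyaluronan, modified proteins and immune complexes from the blood through scavenger, lectin and Fc receptors. Vascular endothelial growth factor (VEGF), much of it made by hepatocytes, maintains them through the receptor encoded by Kdr, and the transcription factor GATA4 sets their sinusoidal identity against that of continuous capillaries. Sel1L is the adaptor of the Hrd1 ubiquitin ligase in the degradation of misfolded proteins of the endoplasmic reticulum.

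Promoter sequence (250 bases upstream of the annotated start, RefSeq, GRCm38.p6) was held in the reference table for 5 of the 9 genes, Stab1, Stab2, Clec4g, Fcgr2b and Kdr. Shown are those of Stab2, which fell with age in wild type, of Stab1, its paralog, and of Clec4g, whose level stayed nearly the same. GATA factors read a GATA core and ETS factors, a family that includes the endothelial factor ERG, a GGAA core. Words were searched on both strands. For GATA factors they were AGATAA, its variant AGATAG, the word TGATAA and its variant TGATAG, and for ETS factors they were AGGAAG and its variant CGGAAG. Matches are in capitals, and a word on the other strand appears as its reverse complement.
Stab2, chr10:87007943-87008192, minus strand: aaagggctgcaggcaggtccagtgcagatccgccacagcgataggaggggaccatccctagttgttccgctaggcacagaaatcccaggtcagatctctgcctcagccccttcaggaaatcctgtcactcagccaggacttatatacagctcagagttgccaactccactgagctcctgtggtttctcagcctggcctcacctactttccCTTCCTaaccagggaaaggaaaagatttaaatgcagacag
Stab1, chr14:31168642-31168891, minus strand: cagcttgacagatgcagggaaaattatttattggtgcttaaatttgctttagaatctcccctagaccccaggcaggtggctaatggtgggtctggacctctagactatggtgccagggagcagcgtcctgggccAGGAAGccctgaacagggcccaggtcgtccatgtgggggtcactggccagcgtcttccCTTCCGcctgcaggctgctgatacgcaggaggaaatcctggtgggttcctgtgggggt
Clec4g, chr8:3720652-3720901, minus strand: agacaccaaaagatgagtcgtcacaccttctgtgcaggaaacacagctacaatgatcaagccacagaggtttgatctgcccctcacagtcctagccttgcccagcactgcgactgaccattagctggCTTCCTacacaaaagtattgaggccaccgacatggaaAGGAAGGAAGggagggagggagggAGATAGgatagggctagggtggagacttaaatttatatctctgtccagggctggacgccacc
Stab2 held 1 ETS word, 40 to 35 bases before the start, and Stab1 held 2. Clec4g held 1 GATA word, 62 to 57 bases before the start, and 3 ETS words, of which the pair nearest the start overlap each other. Neither kind of word was found in the windows of Fcgr2b and Kdr. Among 32851 promoters of the same length, 26.5% held a GATA word and 39.2% an ETS word.

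Sel1l, the deleted gene, stood between 8.70 and 8.94 on the log2 scale in the wild-type livers and between 7.10 and 8.42 in the LiSel1lKO livers, and the genotypes did not overlap at either age. The LiSel1lKO liver nearest to wild type was replicate 1 at 3 weeks. Over all features its difference did not pass at either single age (-1.21 ± 0.26, adjusted p = 0.391, in the young livers, and -1.02 ± 0.28, adjusted p = 0.108, in the adult livers, both with SE and limma), and averaged over both ages Sel1l fell (-1.11 ± 0.19, SE; adjusted p = 0.0269, limma). Signals of the 9 genes were clearly present: their features' means lay between the 78.8th percentile of all feature means for Pecam1 and the 94.9th for Clec4g. Hepatocyte markers (9 measured) had median log2 differences between -0.109 and 0.031 in the 4 pairwise comparisons of genotype or age, and 0 of them changed. A second Clec4g feature with a mean of 2.08 was not used, nor was a feature that the annotation gives to both Stab1 and Nt5dc2. All values below are the deposited log2 values, and differences are log2 differences with the SE of a limma fit over all 13 livers. A gene is said to rise or fall where the Benjamini-Hochberg adjusted p of that fit, over all 35556 features, was under 0.05. In whole liver, fewer cells of a type and less RNA per cell cannot be told apart.

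**Figure D1:**
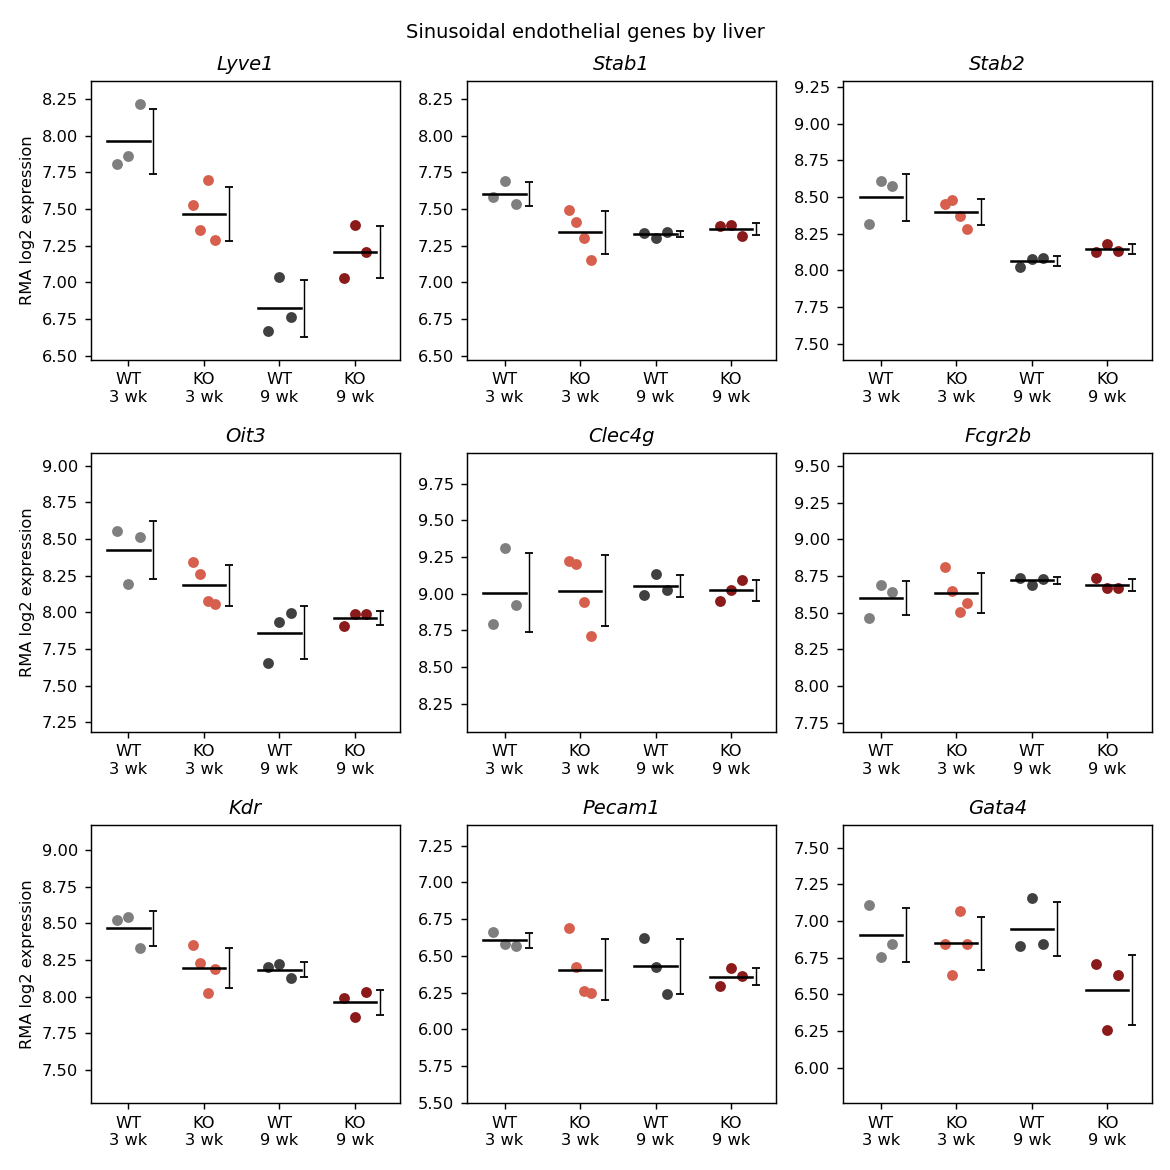
Deposited log2 expression of the 9 genes in each liver. Points are livers, horizontal bars are group means and vertical bars are 1 SD on each side of the mean; WT is wild type (grey) and KO is LiSel1lKO (red), and all panels span the same number of log2 units. Lyve1 spans from 6.67 to 8.22, while Clec4g and Fcgr2b stay near the same level in all groups.

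Between 3 and 9 weeks, 3 of the 9 genes fell in wild-type liver. They were Lyve1, Stab2 and Oit3, and 0 of the 9 rose. Over all features 1.12% fell in this comparison. In 5 of the 9 genes every 9-week wild-type liver was below every 3-week one, against 10.6% of all measured genes, and in 1, Fcgr2b, every 9-week liver was above, against 8.96%. The median difference of the 9 genes was -0.273, and that of all 18820 genes was 0.009.

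Lyve1 encodes a hyaluronan receptor that is also found on lymphatic vessels. Its log2 values were 7.81, 7.86 and 8.22 in the wild-type livers at 3 weeks and 6.67, 7.04 and 6.76 at 9 weeks. The lowest young liver was thus well above the highest adult liver. Lyve1 fell by 1.14 ± 0.15 (SE), which is 2.20-fold lower (adjusted p = 0.00438, limma). The 95% interval ran from -1.47 to -0.80. Among the 9 genes this was the largest difference in any comparison of 2 groups.

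Stab2 and Stab1 encode the stabilins, giant scavenger receptors of the sinusoid, of which stabilin-2 is the main route of hyaluronan clearance. Stab2 stood at 8.31, 8.61 and 8.57 in young and 8.02, 8.08 and 8.08 in adult wild-type liver. The adult livers lay close together and below all young livers. Stab2 fell by 0.44 ± 0.09 (SE; 1.35-fold lower; adjusted p = 0.0337, limma). Stab1 stood at 7.58, 7.69 and 7.53 in young and 7.34, 7.30 and 7.34 in adult livers, again without overlap. Its difference of -0.27 ± 0.09 (SE) did not pass the test (adjusted p = 0.186, limma).

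Oit3 encodes a secreted zona pellucida-domain protein that is nearly restricted to liver. Its values were 8.56, 8.20 and 8.52 at 3 weeks and 7.65, 7.94 and 7.99 at 9 weeks in wild type. The groups did not overlap, although young liver 2 stood closer to the adult livers than to the other young ones. Oit3 fell by 0.56 ± 0.12 (SE; 1.48-fold lower; adjusted p = 0.0481, limma).

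The other receptors of the list kept closer to their level. Clec4g, the lectin LSECtin, stood at 8.79, 9.31 and 8.92 in young and 8.99, 9.13 and 9.03 in adult wild-type liver, with the adult values inside the range of the young. Fcgr2b, the inhibitory receptor for IgG, stood at 8.47, 8.69 and 8.64 at 3 weeks and at 8.73, 8.69 and 8.73 at 9 weeks. The adult values were the higher ones, though level at the closest pair, and the difference of 0.12 ± 0.09 (SE) did not pass (adjusted p = 0.639, limma). For Clec4g the 95% interval of the difference ran from -0.29 to 0.38, and for Fcgr2b from -0.08 to 0.32, so neither shows a decrease of the size seen for Stab2.

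Kdr, the signalling receptor of VEGF-A, was 8.52, 8.55 and 8.33 in young and 8.20, 8.22 and 8.13 in adult wild-type liver. The age groups did not overlap, and the difference was -0.28 ± 0.10 (SE; adjusted p = 0.210, limma). Pecam1 encodes the adhesion molecule CD31 of all endothelium and of platelets and leukocytes. Its young values of 6.66, 6.58 and 6.57 overlapped the adult values of 6.62, 6.42 and 6.24. For Gata4 the young values were 7.11, 6.76 and 6.84 and the adult values 6.83, 7.16 and 6.84, and its difference of 0.04 ± 0.15 (SE) was smaller than its SE. The wild-type values of Gata4 were thus in the same range at both ages.

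Of the 3 calls, that of Lyve1 held whichever of the 13 livers was left out (adjusted p between 0.00505 and 0.0242), whereas the others depended on single livers. The call of Stab2 was lost without either of wild-type livers 2 and 3 at 3 weeks, any of the 3 wild-type livers at 9 weeks, LiSel1lKO liver 3 at 3 weeks, or LiSel1lKO liver 2 or 3 at 9 weeks (8 of 13 omissions; largest adjusted p = 0.114, limma), and that of Oit3 was lost without any liver other than wild-type liver 2 at 3 weeks (12 of 13; largest adjusted p = 0.160, limma). Their differences stayed between -0.53 and -0.38 for Stab2 and between -0.68 and -0.46 for Oit3.

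**Figure D2:**
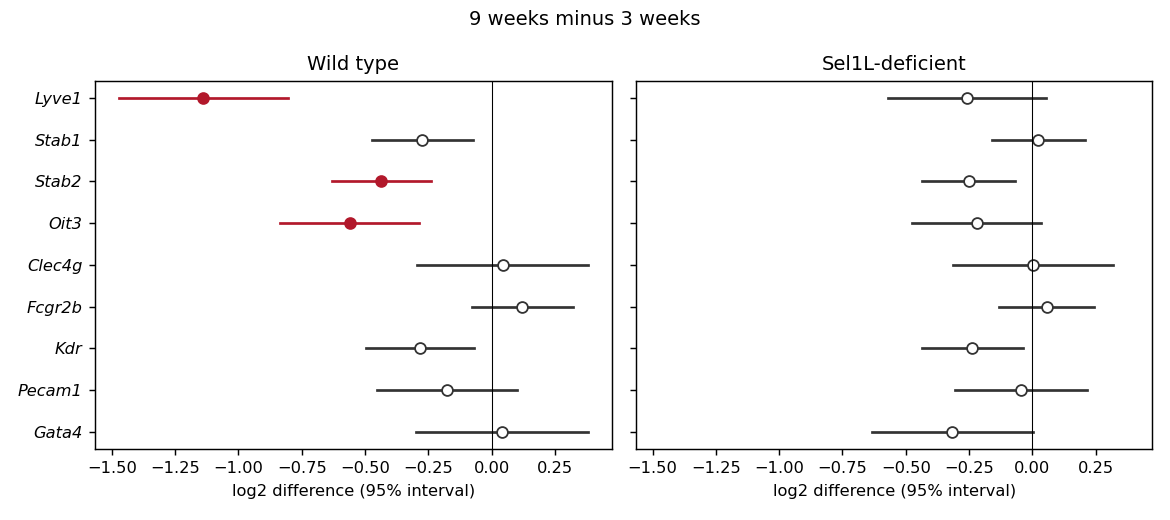
Log2 difference between 9 and 3 weeks in wild-type and in LiSel1lKO (Sel1L-deficient) liver for the 9 genes. Points are estimates of the limma fit and lines their 95% intervals; filled red points passed the adjusted p of 0.05. The filled points are Lyve1, Stab2 and Oit3 in wild type, and no point is filled in the LiSel1lKO panel.

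At 3 weeks, 0 of the 9 genes passed the test between LiSel1lKO and wild-type liver, in a comparison where 0% of all features did (0 at adjusted p under 0.05 and 2634 at unadjusted p under 0.05, limma). Most of the values nevertheless lay on the lower side: 7 of the 9 differences were below 0, with a median of -0.201 against -0.002 over all genes. In 2 of the 9, Lyve1 and Stab1, every LiSel1lKO liver was below every wild-type liver, against 3.79% of all genes. The wild-type livers at 3 weeks are the reference here as well as for wild-type ageing, so the differences of these comparisons are not independent of each other.

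Lyve1 stood at 7.53, 7.36, 7.70 and 7.29 in the 4 LiSel1lKO livers at 3 weeks. All of them lay below the young wild-type range and above the 9-week wild-type livers. The difference was -0.49 ± 0.14 (SE; 1.41-fold lower; adjusted p = 0.477, limma). Stab1 was 7.49, 7.41, 7.30 and 7.15, just below the wild-type range, with a difference of -0.26 ± 0.08 (SE; adjusted p = 0.535, limma). Stab2 was 8.45, 8.48, 8.37 and 8.28 and overlapped wild type, at -0.10 ± 0.08 (SE; adjusted p = 0.820, limma). Oit3 was 8.34, 8.26, 8.07 and 8.05, with 2 livers inside the wild-type range and 2 below it, at -0.24 ± 0.12 (SE; adjusted p = 0.694, limma).

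Clec4g was 9.22, 9.20, 8.94 and 8.71 in these livers and Fcgr2b 8.81, 8.65, 8.51 and 8.57, both across the wild-type values. Their differences were 0.01 ± 0.14 and 0.03 ± 0.09 (SE). Kdr was 8.35, 8.23, 8.02 and 8.19, so that 3 of 4 LiSel1lKO livers lay below all wild-type livers and replicate 1 did not, with a difference of -0.27 ± 0.09 (SE; adjusted p = 0.560, limma). Pecam1 was 6.69, 6.42, 6.26 and 6.24, at -0.20 ± 0.12 (SE). Replicate 1 was the highest LiSel1lKO liver of the 4 for Stab1, Oit3, Clec4g, Fcgr2b, Kdr and Pecam1. Gata4 was 6.84, 6.63, 7.07 and 6.84 and gave -0.06 ± 0.14 (SE).

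Averaged over the 9 genes, the wild-type livers at 3 weeks stood at 7.98, 8.03 and 8.02 and the LiSel1lKO livers at 7.97, 7.85, 7.80 and 7.70. In this mean the LiSel1lKO livers differed more among themselves (SD 0.111, n = 4) than the wild-type livers did (SD 0.0257, n = 3). For Lyve1, Stab2, Oit3, Clec4g and Gata4 taken singly, the wild-type SD was the larger (0.221 against 0.183 for Lyve1). For Stab1, Fcgr2b, Kdr and Pecam1 the LiSel1lKO SD was the larger (0.208 against 0.0519 for Pecam1). The mean of 12 other sinusoidal genes had an SD of 0.198 in wild type and 0.0905 in LiSel1lKO liver. Replicate 1, which also kept the most Sel1l signal, came just below the lowest wild-type liver in the mean of the 9. Without it, the median difference of the 9 genes was -0.292. Without replicate 4, the lowest, it was -0.147.

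At 9 weeks, 0 of the 9 genes passed the test between genotypes, against 1.52% of all features. Lyve1, Stab2 and Oit3, which had fallen with age in wild type, were not lower in LiSel1lKO liver at this age, while Kdr and Gata4 stood lower. In 2 of 9 genes, Kdr and Gata4, all LiSel1lKO livers were below all wild-type livers, against 9.34% of all genes, and in 1, Stab2, all were above, against 11.4%. The median difference was -0.028 and that of all genes -0.008.

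Kdr was 7.99, 7.86 and 8.03 in the adult LiSel1lKO livers, below the lowest wild-type value of 8.13. Its difference was -0.22 ± 0.10 (SE; 1.17-fold lower; adjusted p = 0.332, limma). Averaged over both ages, the genotype difference of Kdr was -0.25 ± 0.07 (SE; adjusted p = 0.131, limma), the smallest adjusted p of the 9 genes in that comparison. None of the 9 passed there, against 0.799% of all features. Gata4 was 6.70, 6.26 and 6.63, with a difference of -0.41 ± 0.15 (SE; 1.33-fold lower; adjusted p = 0.245, limma). The lowest adult wild-type value of Gata4 was 6.83, and liver 2 of the adult LiSel1lKO group, at 6.26, was the lowest of all 13.

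Lyve1 stood at 7.03, 7.39 and 7.21 in the adult LiSel1lKO livers, higher than wild type except that liver 1 and wild-type liver 2 (7.04) were level. The difference was 0.39 ± 0.15 (SE; 1.31-fold; adjusted p = 0.278, limma). Stab2 was 8.12, 8.18 and 8.13, each above the wild-type maximum of 8.08 but by little (0.08 ± 0.09, SE; adjusted p = 0.758, limma). Stab1 (7.38, 7.39 and 7.31) and Oit3 (7.91, 7.99 and 7.99) overlapped wild type, at 0.04 ± 0.09 and 0.10 ± 0.12 (SE). Clec4g (8.95, 9.03 and 9.09), Fcgr2b (8.73, 8.67 and 8.67) and Pecam1 (6.30, 6.42 and 6.37) also overlapped, with differences between -0.07 and -0.03. The groups of Clec4g, Fcgr2b and Pecam1 could not be separated at this number of arrays, and the widest of their 95% intervals, that of Clec4g, reached from -0.37 to 0.31.

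**Figure D3:**
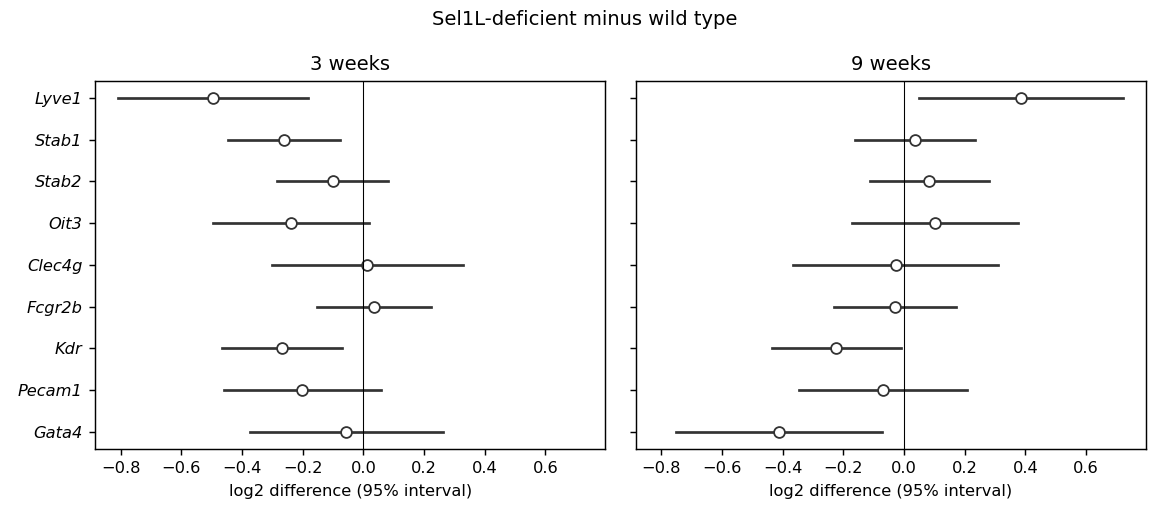
Log2 difference between LiSel1lKO (Sel1L-deficient) and wild-type liver at each age for the 9 genes. Points are estimates of the limma fit and lines their 95% intervals; no difference passed the adjusted p of 0.05, so all points are open. Lyve1 lies at -0.49 at 3 weeks and at 0.39 at 9 weeks, and Kdr lies below 0 at both ages.

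The genotype difference of Lyve1 thus had opposite signs at the 2 ages, and its change between ages was 0.88 ± 0.21 (SE). Over all features this did not pass (adjusted p = 0.251, limma; 0.114 to 0.458 over the other settings), in a test where 0% of features did (3459 at unadjusted p under 0.05). For Stab1 the estimate had the same sign, 0.30 ± 0.12 (SE; adjusted p = 0.473, limma), and did not pass. The change for Kdr was 0.04 ± 0.13 (SE) and that for Gata4 -0.36 ± 0.21 (SE; adjusted p = 0.624, limma).

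Seen along age, 0 of the 9 genes fell or rose in LiSel1lKO liver, against 0.155% of all features. The lower start and the higher end of Lyve1 left a difference of -0.26 ± 0.14 (SE; adjusted p = 0.611, limma), where wild type had -1.14. Stab2 and Oit3 still showed every 9-week LiSel1lKO liver below every 3-week one (2 of 9 genes, against 5.29% of all genes), at -0.25 ± 0.08 and -0.22 ± 0.12 (SE; adjusted p = 0.310 and 0.587, limma). That these genes passed in wild type and not in LiSel1lKO liver does not show a difference between genotypes, since the test of that difference is the change between ages above, which gave 0.18 ± 0.12 for Stab2 and 0.34 ± 0.17 for Oit3 (SE; adjusted p = 0.671 and 0.553, limma). Gata4 had -0.32 ± 0.14 and Kdr -0.24 ± 0.09 (SE), neither past the threshold. Over both genotypes together, Lyve1 (-0.70 ± 0.10), Stab2 (-0.34 ± 0.06) and Oit3 (-0.39 ± 0.09, SE) fell with age, with adjusted p of 0.00678, 0.0144 and 0.0409 (limma), against 1.3% of all features that fell. The calls of Lyve1 and Stab2 held whichever liver was left out, and that of Oit3 held in 2 of 13 omissions, those of wild-type liver 2 and LiSel1lKO liver 4 at 3 weeks. Kdr had -0.26 ± 0.07 (SE; adjusted p = 0.0768, limma).

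The array descriptions hold a code that ends in 05 or 07 and occurs in every group. The labels do not state what it stands for, and it is called the position code here. Differences were also read within each code, where some groups are left with 1 liver. Lyve1 was lower with age in wild type within both codes (-0.97 and -1.15). At 3 weeks its genotype difference was -0.69 within code 05 and -0.25 within code 07, and at 9 weeks it was 0.08 and 0.67. Kdr was lower in LiSel1lKO liver within both codes at 3 weeks (-0.22 and -0.36) and at 9 weeks (-0.21 and -0.30), and Gata4 at 9 weeks (-0.49 and -0.58). The median of the 9 genes at 3 weeks was -0.239 and -0.192.

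Over the 13 livers the 9 genes did not vary as a unit. Pearson's r over the 36 pairs had a median of 0.33, and 27 pairs were above 0. Lyve1 and Stab2 (0.864) and Lyve1 and Oit3 (0.839) were the closest, and Lyve1 and Fcgr2b (-0.457) the farthest apart. After subtraction of each group's mean, the median was 0.139, and the closest pair was Stab2 and Clec4g (0.812), which did not follow each other across the groups (0.256 over all livers). These values share arrays and their normalization and are given as a description. Among 10601 genes with a feature mean above the median, those whose values over the 13 livers were most like the mean of the 9 were Hsd3b1 (r = 0.943), Grb10 (0.92), Ezh2 (0.916), Mest (0.91), Hspg2 (0.904), Pxdn (0.903), Trp53i11 (0.901) and Nasp (0.9). For this mean the 9 genes were centred but not scaled, so Lyve1, which had the widest range, weighed most in it. With group means subtracted, Pprc1 (0.941) and Erg (0.906), the endothelial ETS factor, came first, followed by P4ha1, D11Wsu47e, Ets2, Sema6a, Pigx and Arf6 (0.871 to 0.899).

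Of 12 other sinusoidal genes, 0 changed in any comparison. At 3 weeks 10 of them were below 0 in LiSel1lKO against wild-type liver, with a median of -0.128, and Flt4, the receptor of VEGF-C, had the smallest p (-0.41 ± 0.12, SE; adjusted p = 0.477, limma). Flt4 stood at 7.62, 7.46 and 7.40 in wild type and 7.18, 7.33, 6.94 and 6.87 in LiSel1lKO liver, without overlap. The orphan receptor gene Gpr182 differed in the same way (-0.26 ± 0.11, SE). These were the 2 of 12 genes with every LiSel1lKO liver below every wild-type liver, against 3.79% of all genes. In wild-type ageing 8 of the 12 were below 0 (median -0.107). In 4 of the 12 every 9-week liver was below every 3-week one, against 10.6% of all genes. In 1 every 9-week liver was above, against 8.96%. This was Dnase1l3, an endonuclease (0.30 ± 0.09, SE; adjusted p = 0.151, limma).

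Of 19 measured general endothelial genes, 0 changed, and at 3 weeks 17 were below 0 in LiSel1lKO against wild-type liver (median -0.08). Eng, the TGF-beta co-receptor endoglin, had wild-type values of 9.27, 9.09 and 9.12 and, below all of these, LiSel1lKO values of 8.96, 8.91, 8.89 and 8.78 (-0.28 ± 0.08, SE; adjusted p = 0.464, limma). Cdh5, the adherens junction cadherin of endothelium, had -0.30 ± 0.12 at 3 weeks and -0.43 ± 0.13 in wild-type ageing (SE; adjusted p = 0.633 and 0.142, limma). Eng and Cdh5 were the 2 of 19 with every LiSel1lKO liver below every wild-type liver at 3 weeks, against 3.79% of all genes. In wild-type ageing 15 of the 19 were below 0 (median -0.147). In 8 of the 19 every 9-week liver was below every 3-week one, against 10.6% of all genes. In 1 every 9-week liver was above, against 8.96%. S1pr1, a receptor for sphingosine-1-phosphate, was among those above 0 at 3 weeks, with 6.55, 6.33 and 5.95 in wild-type and 6.81, 6.61, 7.64 and 7.10 in LiSel1lKO livers, without overlap (0.76 ± 0.27, SE; adjusted p = 0.579, limma). Its change between ages was -1.01 ± 0.39 (SE; adjusted p = 0.448, limma). At 9 weeks the genotype median was -0.033, with 11 below 0. In 1 of the 19, Erg, every LiSel1lKO liver (5.11 to 5.225) was below every wild-type liver (5.336 to 5.488), against 9.34% of all genes. In 1, Esam, every LiSel1lKO liver was above, against 11.4%. Esam, an adhesion molecule of endothelial junctions, had adult values of 5.85, 5.76 and 5.87 for wild type and, above all of these, 6.41, 6.22 and 6.09 for LiSel1lKO (0.41 ± 0.15, SE; adjusted p = 0.215, limma).

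Plvap, which forms the diaphragms of endothelial pores and is a mark of continuous and fenestrated capillaries, was among 13 genes of capillaries, arteries and veins. It stood at 8.34, 7.98 and 7.94 in young and 7.38, 7.52 and 7.65 in adult wild-type livers, and fell by 0.57 ± 0.13 (SE; adjusted p = 0.0478, limma). This call held in only 1 of the 13 omissions of a liver, that of LiSel1lKO liver 1 at 9 weeks. The LiSel1lKO values were 7.70, 7.94, 7.94 and 7.82 when young and 7.92, 8.21 and 8.10 when adult. At 9 weeks all LiSel1lKO values were above wild type, by 0.56 ± 0.13 (SE; 1.48-fold; adjusted p = 0.0566, limma), just outside the threshold. The change of its genotype difference between ages was 0.80 ± 0.17 (SE; adjusted p = 0.226, limma), the same sense as for Lyve1. The other 12 genes of that list did not change, and 5 of the 13 lay below the array medians in mean signal.

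Among 14 measured VEGF and angiopoietin ligands and receptors, which include Kdr, Vegfa alone changed. It did so between genotypes at 9 weeks, where 1.52% of all features changed. Vegfa encodes the main ligand of the Kdr receptor. It stood at 9.44, 9.44 and 9.15 in the adult wild-type livers and 8.89, 8.48 and 8.60 in the adult LiSel1lKO livers, without overlap. With genotype it fell by 0.68 ± 0.14 (SE; 0.622-fold; adjusted p = 0.0400, limma). The call was lost in 10 of 13 omissions of a liver and held without wild-type liver 2 or 3 at 3 weeks or LiSel1lKO liver 1 at 9 weeks, with the difference between -0.80 and -0.60 throughout. The young livers had overlapping Vegfa values, 9.05, 9.28 and 8.81 for wild type against 8.73, 8.95, 8.95 and 8.88 for LiSel1lKO (-0.17 ± 0.13, SE). Nrp1, the co-receptor of VEGF-A, was 8.16, 8.08 and 7.99 against 7.48, 7.45 and 7.88 at 9 weeks (-0.47 ± 0.19, SE; adjusted p = 0.273, limma). At 9 weeks Vegfa, Kdr, Nrp1 and Angpt2, which encodes the TIE2 antagonist angiopoietin-2, were the 4 of 14 genes whose LiSel1lKO livers all lay below wild type, and 0 lay above, against 9.34% and 11.4% of all genes. For Angpt2 the groups were barely apart (highest LiSel1lKO liver 2.77, lowest wild-type liver 2.79), and its mean of 2.91 lay below the median feature of every array (3.72 to 3.81).

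**Figure D4:**
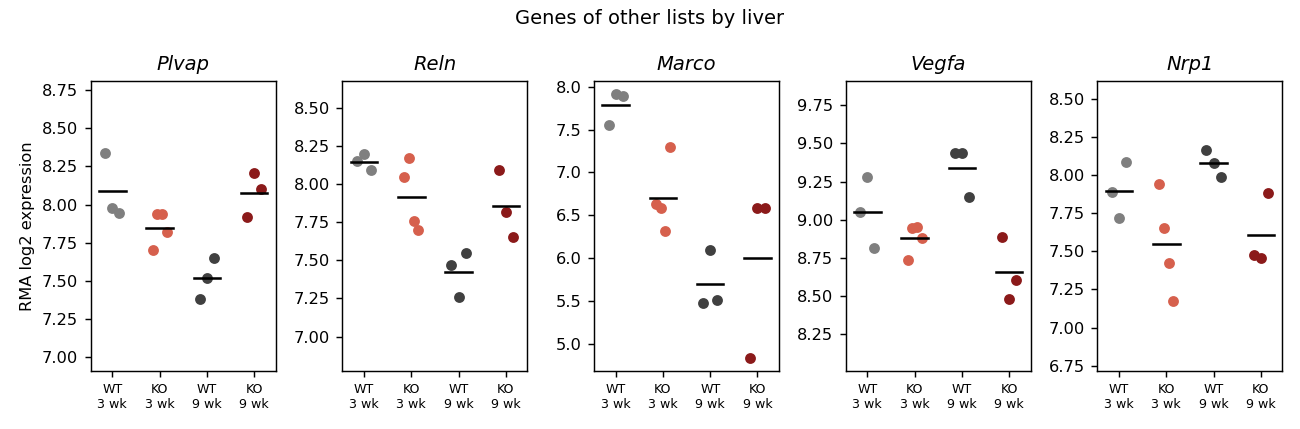
Deposited log2 expression of Plvap, Reln, Marco, Vegfa and Nrp1 in each liver. Points are livers and horizontal bars group means; WT is wild type (grey) and KO is LiSel1lKO (red), and the Marco axis spans more log2 units than the others. At 9 weeks all LiSel1lKO livers lie above all wild-type livers for Plvap and below them for Vegfa and Nrp1.

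Of the 8 GATA factors and FOG cofactors, which include Gata4, 0 changed with genotype. Zfpm1, the cofactor FOG1, rose with age over both genotypes (0.50 ± 0.11, SE, adjusted p = 0.0409, limma), where 308 of all 35556 features rose. The call of Zfpm1 held in 2 of 13 omissions, those of LiSel1lKO liver 2 at either age. Angiocrine ligands, through which the endothelium instructs hepatocytes, gave 0 changes among 8 genes. Bmp6, the ligand that drives hepcidin, had -0.41 ± 0.14 at 3 weeks (SE; adjusted p = 0.559, limma), and the Notch ligand Dll4 had -0.52 ± 0.14 in wild-type ageing (SE; adjusted p = 0.0879, limma). Of 6 hepatocyte targets of BMP signals, such as Hamp and Id1, 0 changed in any comparison. Of 12 hepatocyte targets of endothelial WNT signals, 10 lay above 0 in LiSel1lKO liver at 3 weeks (median 0.274) and 0 changed. In wild-type ageing 1 of the 12 changed, where 272 of all 35556 features rose. The glutamate transporter gene Slc1a2 rose by 0.82 ± 0.15 there (SE, adjusted p = 0.0245, limma). That call was lost in 5 of 13 omissions of a liver (wild-type livers 1 and 3 at 3 weeks and each wild-type liver at 9 weeks). Over both genotypes Slc1a2 also rose with age, by 0.75, where 308 of all 35556 features rose. This second call held in 22 of 22 other settings (adjusted p 0.00151 to 0.0211, limma).

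Genes of other cells of the sinusoid varied beside the 9. Kupffer cell markers (12 measured) were below 0 in 12 of 12 genes at 3 weeks in LiSel1lKO against wild-type liver, with a median of -0.338. In 7 of the 12 every LiSel1lKO liver was below every wild-type liver, against 3.79% of all genes. Their mean level was 7.80 to 7.90 in the wild-type livers and 7.36 to 7.66 in the LiSel1lKO livers. None of them passed, and Marco, a macrophage scavenger receptor, was the one with the smallest p (-1.08 ± 0.39, SE; adjusted p = 0.597, limma). At 9 weeks their mean level was 7.42 to 7.83 in wild type and 6.95 to 7.89 in LiSel1lKO, where liver 1 stood apart at the low end. In wild-type ageing 11 of the 12 were below 0, with a median of -0.271. In 6 of the 12 every 9-week liver was below every 3-week one, against 10.6% of all genes. In 1, C6, every 9-week liver was above, against 8.96%. Marco fell by 2.09 ± 0.42 with age in wild type (SE; adjusted p = 0.0299, limma), a call lost when any of the 6 wild-type livers was left out. C6, a complement gene that hepatocytes also make, rose by 2.91 ± 0.30 there (SE; adjusted p = 0.00126, limma) and fell by 1.84 ± 0.30 with genotype at 9 weeks (SE; adjusted p = 0.0191, limma), the latter lost in 4 of 13 omissions (wild-type livers 1 and 3 and LiSel1lKO livers 2 and 3 at 9 weeks).

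Stellate cell markers (10 measured) had a median of -0.24 at 3 weeks, with 9 below 0, and of -0.211 in wild-type ageing, with 8 below 0. Their mean level was 7.05 to 7.14 in wild type and 6.72 to 7.06 in LiSel1lKO at 3 weeks, and 6.74 to 7.02 and 6.83 to 7.03 at 9 weeks. Reln, which the lymphatic list also holds, fell by 0.72 ± 0.15 with age in wild type (SE; adjusted p = 0.0315, limma), a call lost when any of the 6 wild-type livers was left out. Platelet (4), B cell (4) and lymphatic (3) markers, cells that also express Pecam1, Fcgr2b or Lyve1, did not change except for Reln, and 3 of the 4 platelet, 3 of the 4 B cell and 1 of the 3 lymphatic genes lay below the array medians. Platelet markers had a lower mean level at 3 weeks in LiSel1lKO liver (3.49 to 3.64) than in wild type (3.91 to 4.50). Their differences ran from -0.067 for Itga2b to -1.316 for Ppbp, so Ppbp weighed most in that mean. In the wild-type livers at 3 weeks Ppbp itself ranged from 4.203 to 5.502. B cell markers stood at 3.35 to 3.41 in wild type and 3.16 to 3.29 in LiSel1lKO liver at that age. Lymphatic markers spanned 6.55 to 6.70 and 6.55 to 6.88. That level was set mostly by Prox1 (mean 8.44) and Reln (7.84), which the stellate list also holds. Pdpn, at 3.58, lay below the array medians, so the level is not a measure of lymphatic vessels alone. The part of these cells, or of hepatocytes, Kupffer cells and stellate cells, in the differences of the 9 genes was not tested. Whole-liver values do not show which cells a difference came from, that of Gata4 at 9 weeks included.

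**Figure D5:**
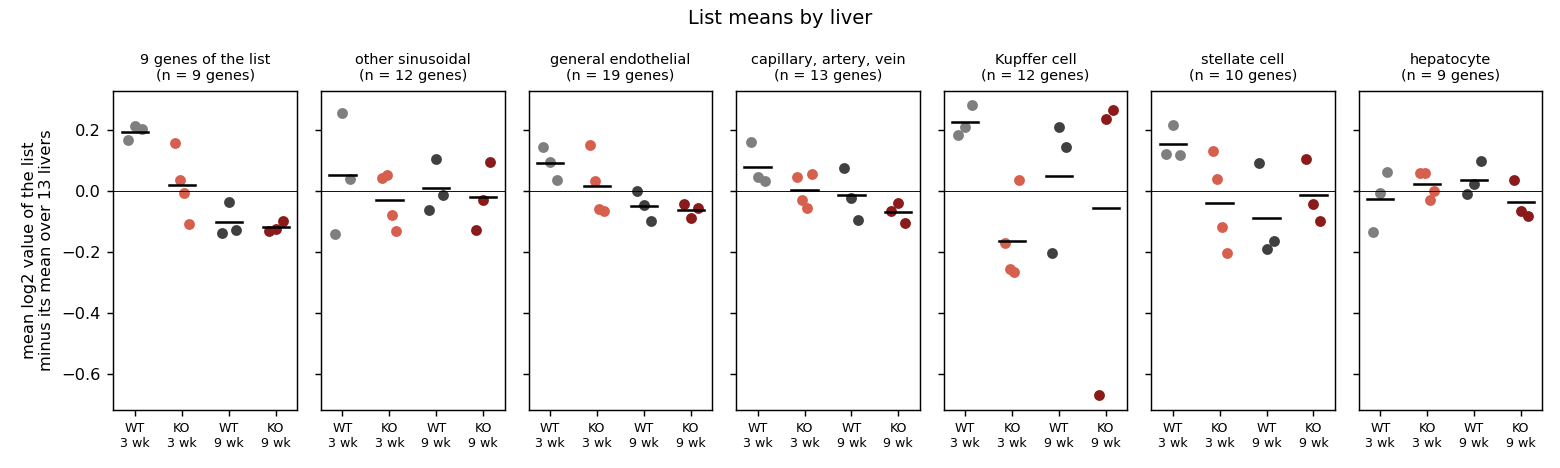
Mean log2 value of each gene list per liver, less that list's mean over the 13 livers. Points are livers and horizontal bars group means; WT is wild type (grey) and KO is LiSel1lKO (red), and all panels share the same axis. The 9 sinusoidal genes stand between 7.98 and 8.03 before centring in young wild-type liver and lower in all other groups, and Kupffer cell markers are lowest in LiSel1lKO liver 1 at 9 weeks.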

How the data were processed

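Total RNA of 13 livers (integrity number above 8, per the labels' protocols) was labelled with the supplier's whole-transcript sense target assay. The authors deposited 1 log2 expression value for each feature of each array. Per the submitters' processing notes these are RMA values. RMA quantile-normalizes arrays, so a shift common to most genes would be largely removed. The RMA software and the genome build are not given in the sources used here. No detection calls or scans were used, and the number of arrays (3 or 4 per group) limits the precision.

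In the platform annotation 21218 of 35556 features had 1 symbol. Groups came from the sample titles. All 13 livers entered 1 linear model with 4 group means (limma 3.58.1, lmFit and eBayes, R 4.3.3); contrasts were two-sided, adjusted by Benjamini-Hochberg over 35556 features, and called at 0.05. The script was tested on simulated data. The labels describe separate mice. The genes and lists were chosen with earlier results of these data known. Named genes were the 9, Sel1l, up to 4 members of each other list with the smallest p, and the 8 most correlated genes by each measure. Eltd1, Gpr116, Figf, Emr1, Gp1ba, Gp1bb, Ccl21a and Ass1 had no feature of their own under that symbol and were not used. Alternatives were other samples, a replicate block, the position code, features, scaling, variance models and each liver left out.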

Additional observations from a re-analysis of the deposited data

Results flagged for a closer look

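A feature that the annotation gives to both Stab1 and Nt5dc2, and that no comparison above used, differed between genotypes at 9 weeks by a log2 difference of 1.241 ± 0.167 (SE; 2.36-fold higher in LiSel1lKO; adjusted p = 0.0121, limma). It stood at 6.28, 6.29 and 6.16 in the adult wild-type livers and 7.68, 7.28 and 7.49 in the adult LiSel1lKO livers, without overlap. The young livers overlapped, with wild type at 7.194 to 7.505 and LiSel1lKO at 6.995 to 7.666, and it fell by 1.071 between ages in wild type (adjusted p = 0.00967, limma). The feature of Stab1 alone differed by 0.04 at 9 weeks. Nt5dc2 had 0 features of its own, so its share of the signal was not tested.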

How the results depend on the processing

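Over 23 other settings, 1026 values of the 9 genes in 5 comparisons were recomputed: 959 kept their direction and their side of the threshold, 26 lost a call, 0 gained one and 41 reversed. The call of Lyve1 in wild-type ageing held in 23 of 23 settings (adjusted p 0.00117 to 0.0466, limma), that of Stab2 in 13 and that of Oit3 in 7. Kdr gained a call for age over both genotypes in 3 of 22 settings, and Plvap one for genotype at 9 weeks in 6 of 23. Further calls lost were those of Vegfa (13 settings) and C6 (6) for genotype at 9 weeks, and of Plvap (17), Reln (9), Marco (7) and Slc1a2 (7) in wild-type ageing, and of Zfpm1 (14), Oit3 (13) and Marco (8) for age over both genotypes. Livers with the same replicate number in their titles showed no pairing (correlations of their deviations between -0.011 and 0.071). For both 9-week livers titled replicate 3 the array descriptions carry another replicate number, so the check does not settle their pairing.

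The counts of changed features moved most. The genotype count at 9 weeks (539) became 1 with only the 2 groups compared, 184 with the replicate block, 294 with the position code, 859 among features above the median, 1106 with array weights, and 18 to 1178 with a liver left out. The wild-type ageing count (672) became 255 with only 2 groups, 440 with the replicate block and 296 to 639 with a liver left out. The ageing count in LiSel1lKO liver (55) became 9, 12 and 18 with only 2 groups, the block and the position code, 144 and 109 among features with 1 symbol and above the median, 90 with an intensity trend, 151 with array weights, 35 with median-centred arrays, and 6 to 210 with a liver left out. The genotype count over both ages (284) became 54 with the block, 175 with the position code, 577 above the median, 430 with the trend, 640 with array weights and 37 to 876 with a liver left out, and the age count over both genotypes (769) 454 to 757. Among features with 1 symbol, 2 changed with genotype at 3 weeks and 15 between ages, and with a liver left out 0 to 1 and 0 to 36. The median of the 9 genes ran from -0.292 to -0.147 at 3 weeks and from 0.038 to 0.204 for the change between ages. The cause was not tested.

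Reversals concerned differences near 0. Clec4g reversed to -0.007 at 3 weeks, 0.011 at 9 weeks and 0.017 for the change between ages with the position code, to -0.003 with array weights, -0.012 with median-centred arrays and -0.016 after a further quantile normalization at 3 weeks, to -0.015, 0.034 and 0.049 in these 3 comparisons with the mean of its features, and to -0.1 in LiSel1lKO ageing with the replicate block. Stab1 reversed to -0.038 in LiSel1lKO ageing with the block, and to -0.011 at 9 weeks and -0.013 in LiSel1lKO ageing after the further normalization. With a liver left out, values at 3 weeks ran from -0.095 to 0.164 (Clec4g), -0.032 to 0.081 (Fcgr2b) and -0.13 to 0.047 (Gata4). At 9 weeks they ran from -0.002 to 0.167 (Oit3), -0.063 to 0.013 (Clec4g) and -0.162 to 0.026 (Pecam1). For the change between ages they ran from -0.192 to 0.067 (Clec4g), -0.111 to 0.002 (Fcgr2b) and -0.013 to 0.112 (Kdr). In wild-type ageing they ran from -0.064 to 0.195 (Clec4g) and -0.066 to 0.143 (Gata4), and in LiSel1lKO ageing from -0.038 to 0.075 (Stab1), -0.1 to 0.07 (Clec4g) and -0.099 to 0.051 (Pecam1).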
